A study of Arabidopsis thaliana with 4 samples.

Results

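Xyloglucan endotransglucosylase/hydrolases (XTHs) are secreted enzymes that cut xyloglucan, the main hemicellulose of the primary wall of dicot plants, and join the cut end to another chain or to water. They are known for loosening and rebuilding the wall while cells grow, and in roots several of them act in elongating cells and in root hairs. Arabidopsis has a family of 33 such genes, *XTH1* to *XTH33*, and every one of them was taken by its locus identifier, with no use of its measured values. All 33 were found among the 28642 loci of the deposited table.

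RNA from whole roots of seedlings was sequenced as single‐end reads in 2 genotypes with 2 biological replicates each, 4 libraries in all, and both genotypes were grown on the same medium. The WT was Wassilewskija (Ws). The mutant, *atx1setm*, is in the Ws background, lacks the endogenous *ATX1* gene function (*atx1-1*) and carries an ATX1 protein whose SET domain cannot methylate histone H3 at lysine 4. The labels give the sequenced plants an age of 10 days after germination, and the sources differ on the youngest age. Each library held between 38574293 and 46439122 exon reads, and XTH genes took 0.170% and 0.173% of them in Ws and 0.177% and 0.215% in *atx1setm*. *ATX1* itself (AT2G31650) was read 731 and 388 times in Ws, and 475 and 270 times in *atx1setm*. Reads of the transgene cannot be told apart from reads of the native gene. Root markers were present in all libraries (*SCR*, *WOX5*, *PLT1*, *CASP1* and *CASP2*, with summed levels of 241 and 264 CPM, counts scaled to library size, in Ws and 148 and 245 in *atx1setm*). Within that list, *WOX5* was higher in *atx1setm* (1.76 and 1.72 CPM in Ws against 4.76 and 4.86, log2 fold change 1.46). Its adjusted p was 0.199 by edgeR's quasi‐likelihood test and 0.0118 by edgeR's exact test. *PLT1* was lower (15.1 and 16.9 CPM in Ws against 9.97 and 8.42, log2 fold change −0.80). Its unadjusted p was 0.0235 and its adjusted p 0.392 by the quasi‐likelihood test, and its adjusted p was 0.289 by the exact test. Transcripts of 4 green shoot markers were also present. They summed to 128 and 202 CPM in Ws and to 77.9 and 248 CPM in *atx1setm*, and the genotypes overlapped. Most of that sum was *RBCS1A* (109 and 166 CPM in Ws, 67.4 and 219 in *atx1setm*). The tissue these transcripts came from was not tested. No source says whether libraries with the same number were grown together. The tests treat the 4 libraries as independent, and their p-values set the genotype difference against the spread between these libraries.

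The family split into a few genes with large differences and many with small ones. *XTH26*, *XTH2*, *XTH13*, *XTH14* and *XTH12* were lower in *atx1setm*, and *XTH20*, *XTH28*, *XTH33* and *XTH29* were higher, at an unadjusted p under 0.05 in edgeR's quasi‐likelihood test. Of 29 members with enough reads to be tested, 5 were lower (17.2%) and 4 were higher (13.8%), beside 4.78% and 4.93% of the 20714 genes tested. After Benjamini‐Hochberg adjustment over all genes, this test called no member in either direction, and no gene at all (0% lower and 0% higher). The exact test of edgeR, adjusted in the same way, called 5 members lower (17.2%) and 2 higher (6.90%), beside 2.23% and 1.69% of all genes. The 5 lower members were the same under both tests, and those called higher by the exact test were *XTH20* and *XTH28*. The paper already lists *XTH2*, *XTH13*, *XTH14* and *XTH26* as downregulated from these same libraries, so these calls are not separate support. DESeq2 also gave 5 and 2, beside 363 lower and 303 higher of the 20714 genes. In what follows, a gene passed a test where its unadjusted p in the quasi‐likelihood test or its adjusted p in the exact test was under 0.05. A log2 fold change below 0 means a lower level in *atx1setm* than in the WT, and its SE was taken from the fitted model.

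The median log2 fold change of the 29 members was 0.03, close to the median of all genes of −0.01, with 13 members below 0 and 16 above. A total of 18 members lay between −0.6 and 0.6. Both *atx1setm* libraries lay below both Ws libraries for 9 members (31%) and above them for another 9 (31%), beside 20.0% and 19.6% of all genes. The genotypes overlapped for the remaining 11. Of the 4 members not tested, *XTH1* (AT4G13080) and *XTH3* (AT3G25050) had 0 exon reads in every library. *XTH6* (AT5G65730) had 1 and 1 exon reads in Ws against 5 and 1 in *atx1setm*, and *XTH25* (AT5G57550) had 2 and 2 in Ws against 3 and 2 in *atx1setm*. Their transcripts were at or near the limit of detection at this depth.

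**Figure D1:**
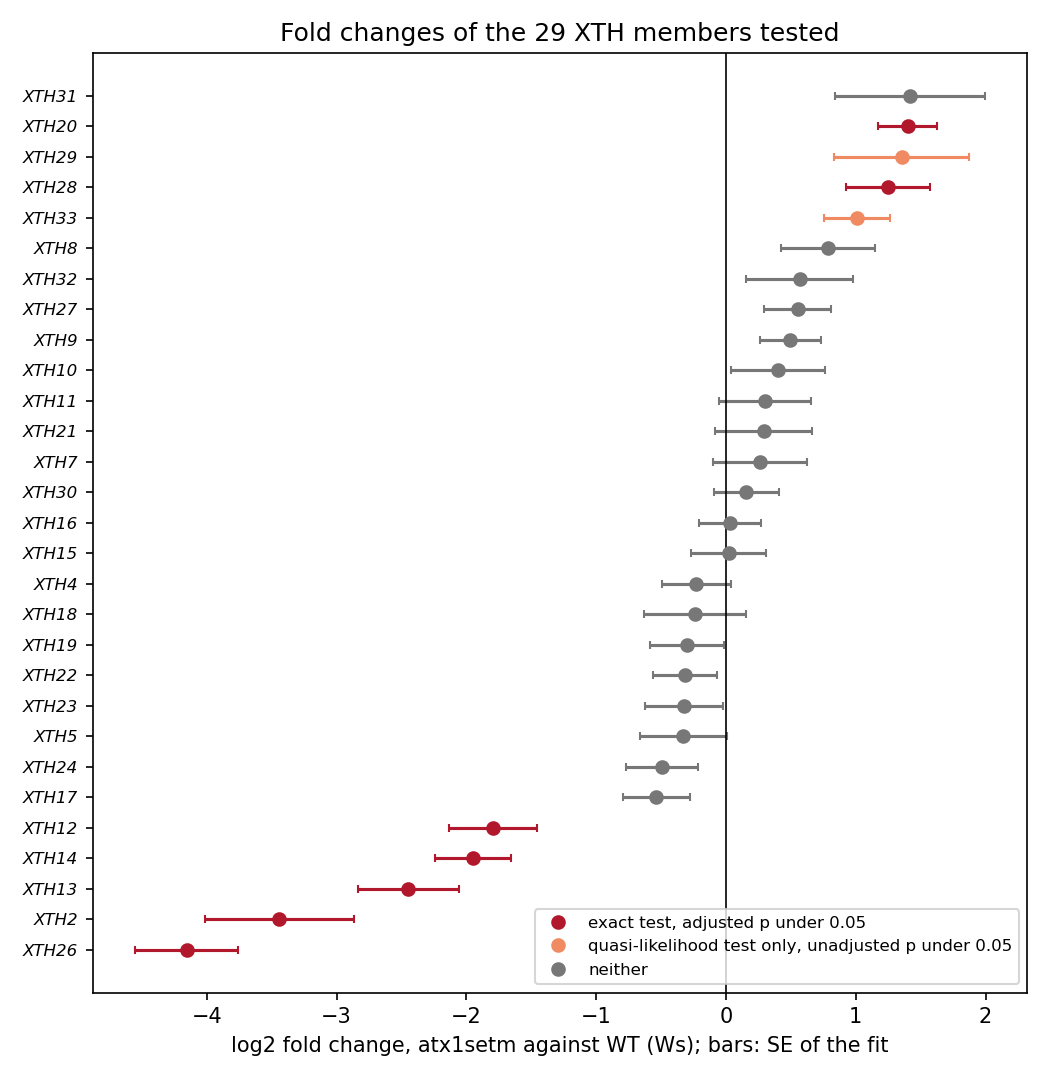
Log2 fold change of each of the 29 XTH members tested, *atx1setm* against WT, with the SE of the fitted model as bars; colours mark the test passed. The members at the lower end are *XTH26* (−4.16), *XTH2* (−3.44), *XTH13* (−2.45), *XTH14* (−1.95) and *XTH12* (−1.79), and the next one, *XTH17*, is at −0.54.

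Among the lower members, *XTH12*, *XTH13* and *XTH14* encode closely related enzymes, and another, *XTH26*, is more distant. Their active sites are shown because the same amino acids there are written with different codons, which helps to assign reads to one gene. The 27 coding bases of the site run 5′ to 3′ on the coding strand, from RefSeq's annotation of TAIR10.1, and capitals mark bases that differ from *XTH12*. The window lies on chromosome 5 for *XTH12* and *XTH13* and on chromosome 4 for *XTH14*, *XTH26* and *XTH2*.
XTH12: gatgagattgatttcgagttcttgggt
XTH13: gatgaAatCgaCttcgagttcttgggt
XTH14: gatgagattgaCttcgagttTttgggA
XTH26: gatgagatAgaCttcgagttcCtAggA
XTH2: gatgagGttgaCttTgagttcttgggG
The windows of *XTH13* and *XTH14* differ from that of *XTH12* at 3 bases, that of *XTH26* at 5 and that of *XTH2* at 4. The encoded amino acids are the same in *XTH12*, *XTH13*, *XTH14* and *XTH26* and differ in *XTH2*. The pattern of this site was found in 32 of the 33 proteins, all but *XTH11*.

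Over whole proteins, translated from the RefSeq gene models and aligned with MAFFT, XTH12 and XTH13 were 93.0% identical, and XTH14 was 80.9% and 81.3% identical to them. Reads were 50 bases long. No 50-base exon window of *XTH2*, *XTH12*, *XTH13* or *XTH14* occurred elsewhere in the nuclear genome, and 0.305% of those of *XTH26* did. By identical windows in the reference genome, the values of these genes can be read separately. Windows with a few mismatches, and bases that differ in Ws, were not searched.

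*XTH26* (AT4G28850; chromosome 4 of TAIR10 from 14244295 to 14245957), whose enzyme has been located in root hairs and the root epidermis, showed the largest difference of the family. Its exon reads numbered 530 and 272 in Ws, against 22 and 20 in *atx1setm*, which is 10.7 and 6.98 CPM against 0.472 and 0.519 CPM. The Ws mean of 8.86 ± 2.67 CPM (SD of 2 libraries) was 17.9‐fold the *atx1setm* mean of 0.495 ± 0.0339 CPM. The lowest Ws library was far above both *atx1setm* libraries. The log2 fold change was −4.16 (SE 0.40), with an adjusted p of 0.0837 in the quasi‐likelihood test, which no gene of the table undercut, and of 1.03e-12 in the exact test. Reads spanning exon junctions numbered 69 and 24 in Ws against 1 and 1 in *atx1setm*, and intron reads 1 and 2 in Ws against 0 and 0 in *atx1setm*. Spliced reads were thus scarce in both mutant libraries as well.

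*XTH14* (AT4G25820; chromosome 4 from 13130297 to 13131788) was the most abundant of the lower members. Its enzyme cuts and rejoins xyloglucan in vitro and is found in the root elongation zone and root hairs. It had 146 and 161 CPM in Ws and 31.9 and 47.5 CPM in *atx1setm*, a 3.87‐fold difference of the means. Its log2 fold change was −1.95 (SE 0.29; adjusted p = 0.128 by the quasi‐likelihood test and 1.49e-05 by the exact test). By mean level per kilobase of exon it was the third most abundant XTH of Ws and the 14th of *atx1setm*, and its share of the summed XTH level was 9.86% in Ws and 2.099% in *atx1setm*.

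*XTH13* (AT5G57540; chromosome 5 from 23302996 to 23304049) had 5.23 and 6.80 CPM in Ws and 0.857 and 1.35 CPM in *atx1setm*, and its log2 fold change was −2.45 (SE 0.39; adjusted p = 0.139, exact test 4.06e-05). *XTH12* (AT5G57530; chromosome 5 from 23300321 to 23301605) had 16.3 and 23.7 CPM in Ws and 4.71 and 6.83 CPM in *atx1setm*, with −1.79 (SE 0.34; adjusted p = 0.180, exact test 0.00132). Both encode root enzymes with endotransglucosylase activity. For each gene the higher *atx1setm* library was less than the lower Ws library. The ratio of *XTH13* to *XTH12*, per kilobase of exon, was 0.399 and 0.356 in Ws against 0.226 and 0.246 in *atx1setm*, so that within each library the rarer gene of the pair was also the more reduced in the mutant.

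*XTH2* (AT4G13090; chromosome 4 from 7631535 to 7632870) was rare in every library, with 40 and 31 exon reads in Ws against 2 and 4 in *atx1setm*. The ratio of its summed reads was 11.4 (95% interval 4.99 to 32.1, exact binomial, counting error only). Its log2 fold change was −3.44 (SE 0.57; adjusted p = 0.145, exact test 6.34e-05). The direction was the same in all libraries, but its size rests on 6 reads in *atx1setm*.

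**Figure D2:**
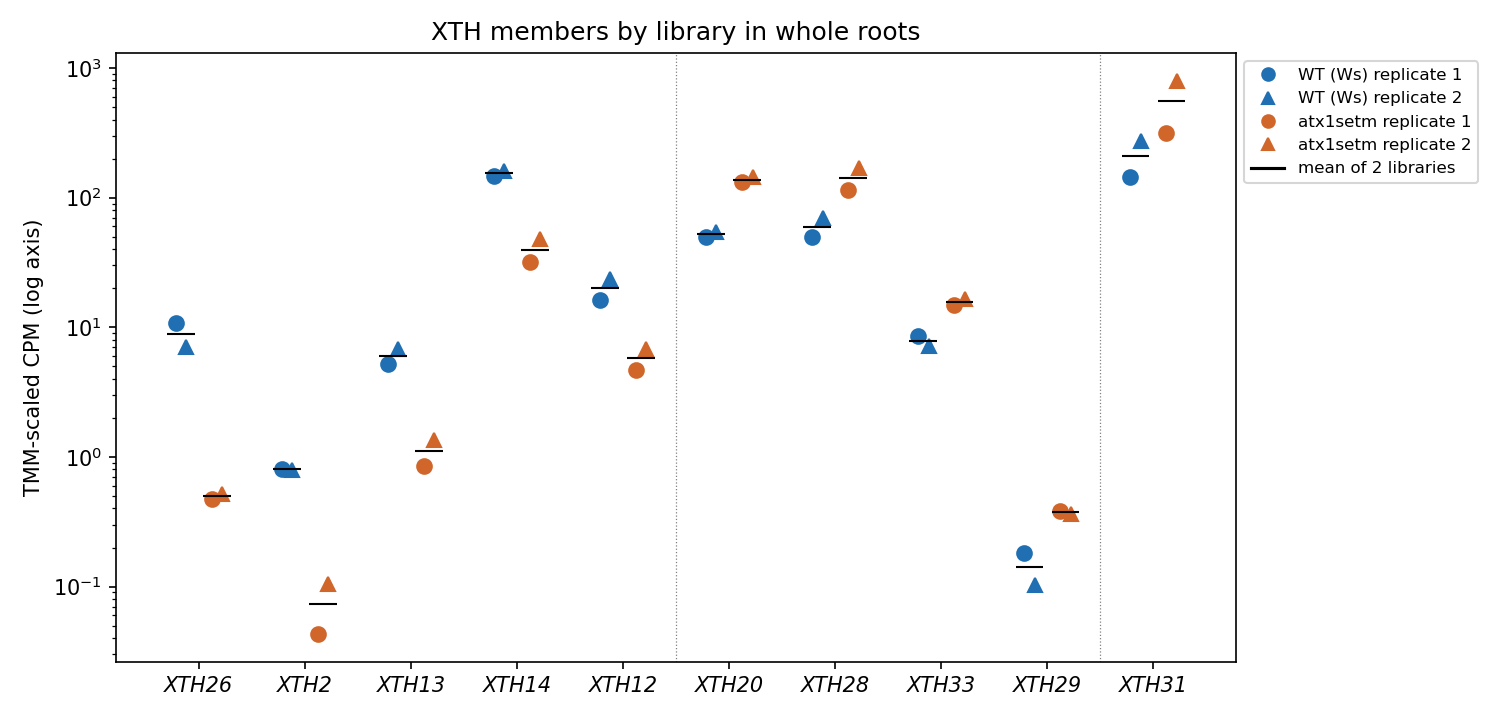
TMM‐scaled CPM (log axis) of the 5 lower members (left), the 4 higher members (middle) and *XTH31* (right) in each library; circles are replicate 1, triangles replicate 2, and bars the mean of 2 libraries. The genotypes do not overlap for any of the 10 genes, and *XTH31* has the widest spread in *atx1setm*, 315 and 797 CPM.

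Root hair genes were compared because *XTH14* and *XTH26* are known from root hairs. All 8 root hair markers (*RHD6*, *RSL4*, *RSL2*, *EXPA7*, *EXPA18*, *COBL9*, *PRP3* and *LRX1*) were lower in both *atx1setm* libraries and had an unadjusted p under 0.05, and 6 were called by the exact test. The shares over all genes were 20.0%, 4.78% and 2.23%. The paper lists *RSL4*, *COBL9*, *PRP3* and *LRX1* among its downregulated genes from these same libraries, so their fall is not separate support. No marker was at 0, and the lowest level was that of *RSL4* with 1.84 CPM. Their median log2 fold change was −1.71. Their summed level was 903 and 958 CPM in Ws and 234 and 269 CPM in *atx1setm*. Most of that sum came from *PRP3* (475 and 524 CPM in Ws, 120 and 137 in *atx1setm*) and *LRX1* (270 and 254 in Ws, 53.0 and 58.1 in *atx1setm*). Ratios to the sum mainly follow these genes. Log2 fold changes of single markers ran from −2.24 (*LRX1*) to −0.90 (*EXPA18*), so a ratio to another marker can differ. In whole roots, fewer cells of a type and less RNA per cell cannot be told apart. *XTH12*, *XTH13*, *XTH14* and *XTH26* together stood at 0.198 and 0.207 of the summed markers in Ws and at 0.162 and 0.209 in *atx1setm*, and these ratios overlapped. For *XTH14* alone the ratio was 0.162 and 0.168 in Ws against 0.136 and 0.177 in *atx1setm*, which overlapped too. *XTH26* alone had a ratio of 0.0119 and 0.00729 in Ws against 0.00201 and 0.00193 in *atx1setm*, with no overlap. The sum of *XTH12*, *XTH13*, *XTH14* and *XTH26* mainly follows *XTH14*. *XTH13* (log2 fold change −2.45) and the rare *XTH2* (−3.44) were also lower by more than any single marker. The part of root hair RNA in the lower XTH levels was not tested.

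**Figure D3:**
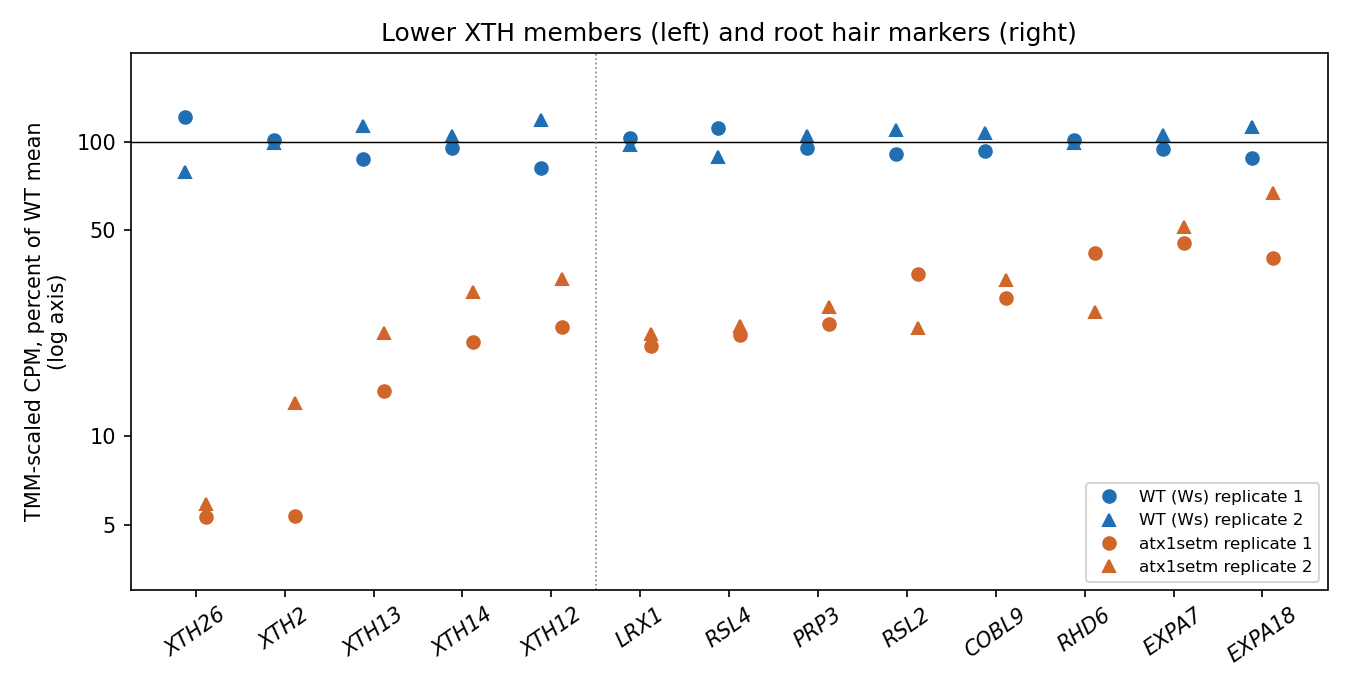
TMM‐scaled CPM of the 5 lower XTH members and of the 8 root hair markers in each library, as percent of the WT mean (log axis); circles are replicate 1 and triangles replicate 2. All 26 points of *atx1setm* lie below all points of WT for the same gene, and those of *XTH26* are the lowest of any gene with more than 10 exon reads in every library.

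*XTH20* (AT5G48070; chromosome 5 from 19482106 to 19483452), a root XTH known from vascular tissue, was the higher member with the closest replicates. It had 49.9 and 54.1 CPM in Ws and 131 and 143 CPM in *atx1setm*, a 2.64‐fold difference of the means. The log2 fold change was 1.40 (SE 0.23; adjusted p = 0.140, exact test 6.09e-04). Its enzyme was 83.8% to 84.4% identical to those of *XTH17*, *XTH18* and *XTH19*, root genes of the elongation and differentiation zones, whose values follow.

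The active‐site bases of these 4 genes are shown for the same reason as above, with capitals where they differ from *XTH17*, on chromosome 1 for *XTH17*, 4 for *XTH18* and *XTH19* and 5 for *XTH20*.
XTH17: gatgagatcgatttcgagttcttggga
XTH18: gatgagatTgatttcgagttcttAgga
XTH19: gatgagatTgatttcgagttTttgggG
XTH20: gatgaAatAgatttTgagttcttggga
All 4 windows encode the same amino acids. *XTH18* and *XTH19*, in contrast, share an identical stretch of 68 coding bases, longer than a read. Of the 1116 windows of 50 exon bases in *XTH18*, 19 also occur in *XTH19*, and of the 1188 in *XTH19*, 21 occur in *XTH18* or *XTH17*. Of the 1097 in *XTH17*, 2 occur in *XTH19*. The table holds only uniquely mapped reads, so reads from shared windows count for neither gene. The shared stretch lies on chromosome 4, minus strand (chr4:14826473-14826560 and chr4:14829465-14829552 of TAIR10.1 with the flanks), and is printed in capitals.
XTH18: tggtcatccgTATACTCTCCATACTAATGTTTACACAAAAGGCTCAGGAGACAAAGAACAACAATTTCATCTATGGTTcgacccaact
XTH19: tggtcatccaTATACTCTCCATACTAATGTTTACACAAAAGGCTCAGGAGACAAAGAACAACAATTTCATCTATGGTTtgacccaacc

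*XTH17* (AT1G65310) had 38.2 and 29.6 CPM in Ws and 21.7 and 25.1 CPM in *atx1setm* (log2 fold change −0.54, SE 0.26). *XTH18* (AT4G30280) had 145 and 70.3 CPM in Ws and 84.6 and 97.8 CPM in *atx1setm* (−0.24, SE 0.39), and *XTH19* (AT4G30290) had 103 and 87.2 CPM in Ws and 62.7 and 91.8 CPM in *atx1setm* (−0.30, SE 0.28). None of the 3 passed a test, and the genotypes overlapped for *XTH18* and *XTH19*. The direction of *XTH18* rested on Ws replicate 1, without which its log2 fold change was 0.37. The ratio of *XTH20* to *XTH17* within a library, per kilobase of exon, was 1.22 and 1.71 in Ws against 5.66 and 5.33 in *atx1setm*. The ratio of *XTH20* to *XTH18* was 0.322 and 0.719 in Ws against 1.45 and 1.37 in *atx1setm*, and that to *XTH19* was 0.488 and 0.623 in Ws against 2.101 and 1.57 in *atx1setm*. *XTH20* thus went from the rarer gene to the more abundant one beside *XTH18* and *XTH19*, in both replicates.

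*XTH28* (AT1G14720; chromosome 1 from 5066636 to 5068645), known from the growth of stamen filaments, had 49.3 and 69.2 CPM in Ws and 114 and 168 CPM in *atx1setm*, a 2.38‐fold difference of the means. Its log2 fold change was 1.25 (SE 0.32; adjusted p = 0.296, exact test 0.0367), and without Ws replicate 1 its unadjusted p was 0.125. Its closest relative *XTH27* (AT2G01850), 78.6% identical in protein and known from tracheary elements of leaves, had 23.2 and 25.4 CPM in Ws and 30.8 and 40.6 CPM in *atx1setm* (0.55, SE 0.26). Both genes were above WT in both replicates, although *XTH27* passed no test. The ratio of *XTH28* to *XTH27*, per kilobase of exon, was 2.18 and 2.79 in Ws against 3.79 and 4.24 in *atx1setm*.

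*XTH33* (AT1G10550; chromosome 1 from 3479153 to 3480988), whose protein is predicted to stay anchored in the plasma membrane, had 8.56 and 7.11 CPM in Ws and 15.0 and 16.6 CPM in *atx1setm*. Its log2 fold change was 1.01 (SE 0.25; adjusted p = 0.285, exact test 0.0937), and its unadjusted p was 0.0827 without Ws replicate 1 and 0.164 without Ws replicate 2. *XTH29* (AT4G18990) had 9 and 4 exon reads in Ws against 18 and 14 in *atx1setm*. The ratio of its summed reads was 2.55 (95% interval 1.30 to 5.30, exact binomial, counting error only) and its log2 fold change 1.35 (SE 0.52; adjusted p = 0.507, exact test 0.406). It missed an unadjusted p of 0.05 without any 1 of the 4 libraries. *XTH30* (AT1G32170), its closest relative at 66.7% identity, had 64.5 and 54.1 CPM in Ws and 58.4 and 74.0 CPM in *atx1setm*, and the genotypes overlapped (0.16, SE 0.25).

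*XTH31* (AT3G44990; chromosome 3 from 16446975 to 16448764) had the highest mean level per kilobase of exon of all XTHs in both genotypes, although *XTH4*, *XTH18*, *XTH14* and *XTH24* were above it in Ws replicate 1. Its enzyme is known mainly for cutting xyloglucan rather than rejoining it, and has been linked to the response of root walls to aluminium. It had 143 and 273 CPM in Ws and 315 and 797 CPM in *atx1setm*, so that both *atx1setm* libraries were above both Ws libraries. The means of 208 ± 92.0 and 556 ± 341 CPM (SD of 2 libraries) differed by 2.67‐fold. The spread within each genotype was wide, and the log2 fold change of 1.42 (SE 0.58) had an unadjusted p of 0.0570, an adjusted p of 0.532 and an exact test p, adjusted, of 0.241. The size rested on single libraries. Leaving out Ws replicate 2 or *atx1setm* replicate 1 gave 1.96 and 1.94 with unadjusted p of 0.0169 and 3.39e-05, and leaving out Ws replicate 1 or *atx1setm* replicate 2 gave 1.02 and 0.61 with unadjusted p of 0.232 and 0.0878. Its relative *XTH32* (AT2G36870; 66.6% identity) had 18.8 and 31.1 CPM in Ws and 26.5 and 47.4 CPM in *atx1setm*, and the genotypes overlapped (0.57, SE 0.41). The ratio of *XTH31* to *XTH32* was 7.79 and 8.97 in Ws against 12.2 and 17.2 in *atx1setm*, per kilobase of exon.

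The other abundant members passed no test. *XTH4* (AT2G06850), known from xylem and fibre cells of stems, had 188 and 187 CPM in Ws and 135 and 184 CPM in *atx1setm* (log2 fold change −0.23, SE 0.27), and its relative *XTH5* (AT5G13870) had 23.7 and 22.4 CPM in Ws and 13.5 and 23.3 CPM in *atx1setm* (−0.33, SE 0.33). *XTH7* (AT4G37800) had 79.0 and 128 CPM in Ws and 98.1 and 150 CPM in *atx1setm* (0.26, SE 0.36). None of these log2 fold changes was larger than its SE. *XTH8* (AT1G11545) had 73.1 and 107 CPM in Ws and 117.1 and 195 CPM in *atx1setm* (0.79, SE 0.36; unadjusted p = 0.0816). *XTH9* (AT4G03210), known from growing stem and meristem tissue, had 94.1 and 111 CPM in Ws and 141 and 148 CPM in *atx1setm* (0.50, SE 0.23; unadjusted p = 0.0859). For both, the *atx1setm* libraries were above the Ws libraries without passing a test.

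Members with a low or middle level were *XTH10* (AT2G14620), *XTH11* (AT3G48580), *XTH15* (AT4G14130), *XTH16* (AT3G23730) and *XTH21* (AT2G18800), the last known from primary root elongation. Their mean levels ran from 1.19 CPM (*XTH11*) to 48.5 CPM (*XTH15*) and their log2 fold changes from 0.02 (*XTH15*) to 0.40 (*XTH10*). None passed a test. *XTH21* is uncertain in a further way, since 7.82% of its 50-base exon windows also occur at a locus outside the family.

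Several XTH genes lie next to each other, and fold changes differed between some neighbours but not between all. On chromosome 4, *XTH23* (AT4G25810) ends 363 bases before the start of *XTH14* on the same strand, by RefSeq's gene models. *XTH23* had 16.2 and 10.5 CPM in Ws and 10.9 and 10.5 CPM in *atx1setm*, with a log2 fold change of −0.32 (SE 0.30) beside −1.95 (SE 0.29) for *XTH14*. The ratio of *XTH14* to *XTH23*, per kilobase of exon, was 8.93 and 15.2 in Ws against 2.90 and 4.50 in *atx1setm*, and did not overlap. On chromosome 5, *XTH12*, *XTH13*, *XTH25* and *XTH22* follow each other, with 1 other gene between the first pair and gaps of 686 and 565 bases between the rest. *XTH22* (AT5G57560), the touch gene *TCH4*, had 74.8 and 60.7 CPM in Ws and 59.2 and 49.6 CPM in *atx1setm* (−0.32, SE 0.25), against −2.45 for *XTH13* at the other side of the barely detected *XTH25*. The ratio of *XTH13* to *XTH22* was 0.0873 and 0.140 in Ws against 0.0181 and 0.0340 in *atx1setm*. *XTH12* was lower as well (−1.79, SE 0.34).

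The third group of neighbours held *XTH24* (AT4G30270), known as *MERI5*, *XTH18* and *XTH19*. *XTH24* had 141 and 107 CPM in Ws and 76.3 and 100 CPM in *atx1setm* (−0.49, SE 0.28), and the 3 genes, with −0.24 to −0.49, passed no test. *XTH2* stood 3139 bases from *XTH1*, which had no exon read. Its enzyme was 68.4% identical to that of *XTH1*.

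**Figure D4:**
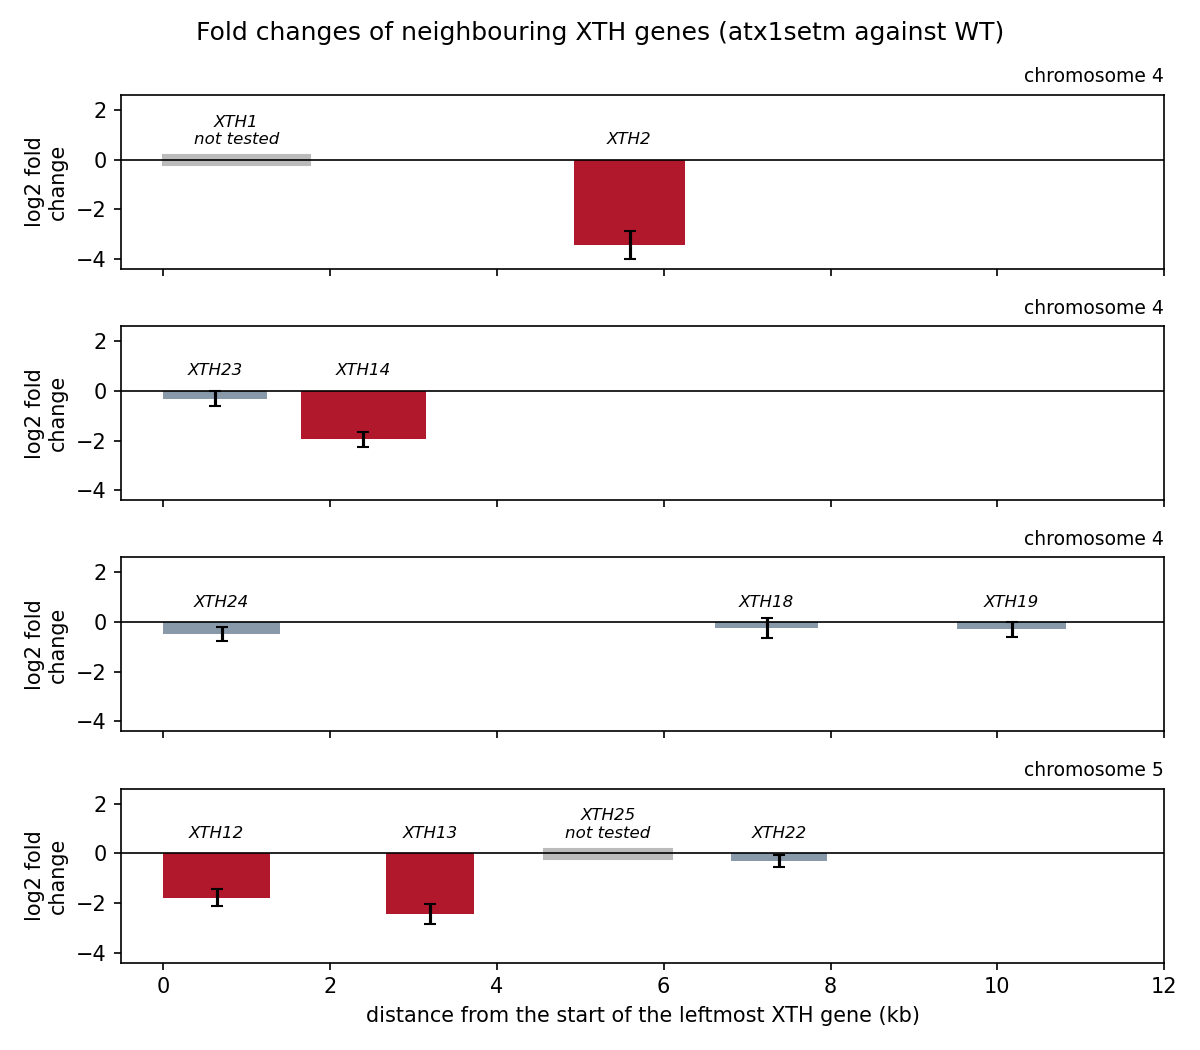
Log2 fold change (bars, with SE of the fit) of neighbouring XTH genes against their distance in kb from the start of the leftmost one, each bar as wide as the gene. Red bars passed the exact test after adjustment: *XTH14* (−1.95) stands beside *XTH23* (−0.32), and *XTH13* (−2.45) near *XTH22* (−0.32); grey strips mark *XTH1* and *XTH25*, which were not tested.

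The level of the whole family, as TMM‐scaled CPM per kilobase of exon summed over 33 members, was 1388 and 1469 in Ws against 1379 and 2107 in *atx1setm*. The means differed by 1.22‐fold and the genotypes overlapped (p = 1, exact permutation test over the 4 libraries, two‐sided, smallest p possible 0.333). Without *atx1setm* replicate 2 the ratio was 0.965, and without *atx1setm* replicate 1 it was 1.475. The authors' RPKM summed to 1458 and 1469 in Ws against 1485 and 1780 in *atx1setm*, a ratio of 1.115 with no overlap (p = 0.333 by the same exact test). The makeup of the sum was less alike. *XTH31* made up 8.10% and 14.6% of it in Ws and 18.0% and 29.7% in *atx1setm*, and without *XTH31* the sums were 1276 and 1254 in Ws against 1131 and 1480 in *atx1setm*. *XTH12*, *XTH13*, *XTH14* and *XTH26* summed to 165 and 185 in Ws against 35.2 and 52.1 in *atx1setm*, a ratio of 0.249 for a sum chosen after their values were seen. *XTH27* to *XTH30* summed to 103 and 112 in Ws against 152 and 211 in *atx1setm*, and *XTH31* with *XTH32* to 127 and 239 in Ws against 268 and 663 in *atx1setm*. *XTH1* to *XTH26* together summed to 1150 and 1112 in Ws against 945 and 1217 in *atx1setm*, a ratio of 0.956 with overlap.

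By mean level per kilobase over the 4 libraries, the order was *XTH31* (300.3), *XTH4* (143), *XTH9* (112), *XTH8* (109), *XTH7* (100), *XTH18* (94.8), *XTH14* (88.7), *XTH24* (87.9), *XTH20* (84.3), *XTH19* (76.4) and *XTH28* (74.2). Ranges over libraries, with both genotypes pooled, overlapped between each of these genes and the next, so the order holds for these means only. Within a genotype, neighbours could differ. The ratio of *XTH14* to *XTH24*, per kilobase of exon, was 1.15 and 1.67 in Ws against 0.464 and 0.526 in *atx1setm*. The ranks of *XTH20* and *XTH28* were 11 and 14 in Ws against 5 and 7 in *atx1setm*.

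**Figure D5:**
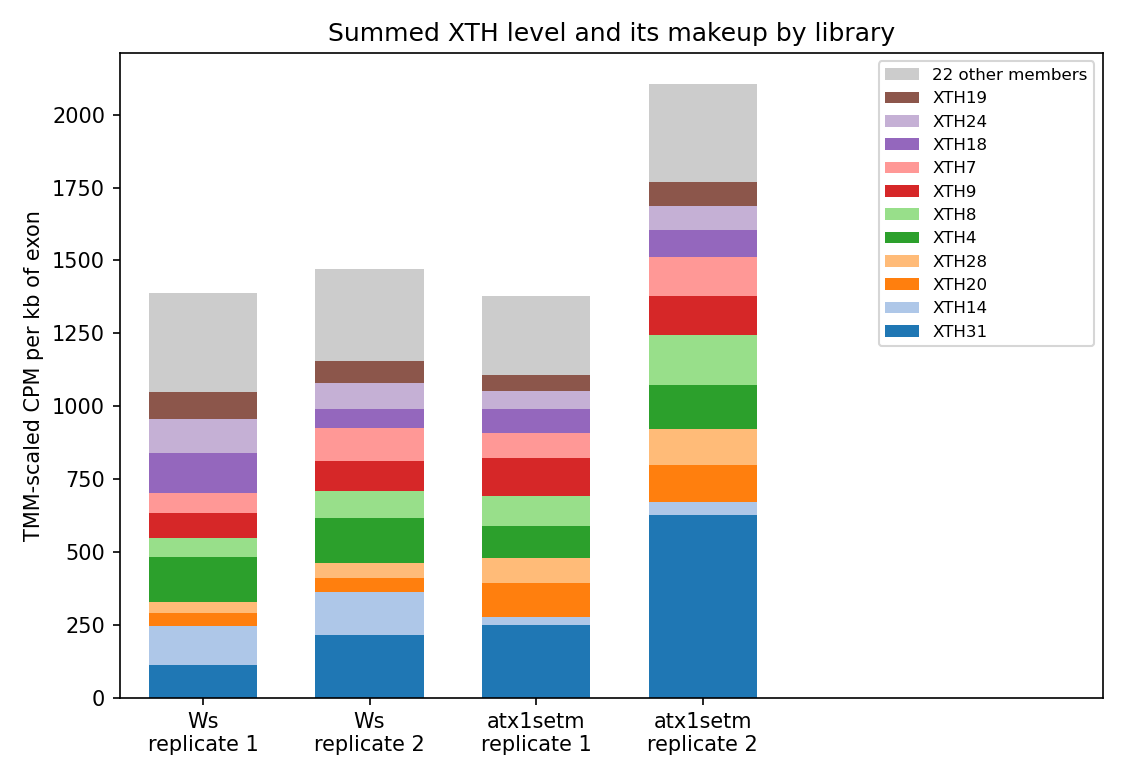
Summed XTH level (TMM‐scaled CPM per kb of exon) in each of the 4 libraries, stacked by member, with 22 less abundant members in grey. The sums are 1388 and 1469 in Ws against 1379 and 2107 in *atx1setm*; *XTH31* (dark blue) is widest in *atx1setm* replicate 2, and *XTH14* (light blue) is narrower in both *atx1setm* libraries.

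Intron reads were a small part of gene reads. They made up less than 3% of gene reads in 28 of the 29 members tested, and the exception, *XTH11*, had 17 intron reads in all. Reads of the family thus came mostly from exons, and intron reads were too few to compare genotypes.

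Genes that make or trim xyloglucan were read as a separate list of 19. Of these, 3 were lower and 0 higher at an unadjusted p under 0.05, beside 4.78% and 4.93% of all genes, and 0 in either direction after adjustment. By the exact test 2 were lower, beside 2.23% of all genes. The median log2 fold change was −0.29, and 15 of 19 were below 0, as were 10550 of all 20714 genes tested. *CSLC12* (AT4G07960), a synthase of the xyloglucan backbone, had 10.6 and 8.44 CPM in Ws and 2.81 and 1.90 CPM in *atx1setm*, and its log2 fold change was −2.01 (SE 0.34; adjusted p = 0.152, exact test 3.27e-04). *XUT1* (AT1G63450) adds galacturonic acid to the xyloglucan of root hairs, and had 14.2 and 13.2 CPM in Ws and 4.24 and 2.83 CPM in *atx1setm* (−1.95, SE 0.32; adjusted p = 0.140, exact test 1.73e-04). These 2 genes were lower by about as much as *XTH14*. *XUT1* is also in the paper's list of downregulated genes from these same libraries. *XYL1* (AT1G68560), an α‐xylosidase that trims xyloglucan, had 273 and 292 CPM in Ws and 177 and 176 CPM in *atx1setm* (−0.68, SE 0.24; adjusted p = 0.459, exact test 0.320). The next by p were *BGAL10* (AT5G63810), a β‐galactosidase of xyloglucan (−0.60, SE 0.28), and *CSLC4* (AT3G28180), the main backbone synthase (−0.79, SE 0.53), and neither passed a test.

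The 300 bases upstream of each member were searched on both strands for 3 motifs, since 4 of the lower members were lower together with root hair genes. The root hair element was found upstream of 0 of the 33 members and 0.897% of 27438 genes with such a window. CACGTG was found upstream of 0 members and 7.08% of genes, and TGTCTC upstream of 3 members (*XTH3*, *XTH6* and *XTH24*) and 12.96% of genes. None of these motifs overlaps another in the members. No match says only that these letters are not in this window.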

How the data were processed

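Trimmed single‐end reads were mapped by the authors to TAIR10, and reads per gene were obtained with CLC Genomics Workbench. The deposited exon, gene, intron and junction read counts are raw counts by the authors, and unique and total exon reads were equal at all 28642 loci. Deposited RPKM, scaled by the authors for exon length and mapped reads, served to choose abundant members for full values and in 1 sum. Printed ranks use TMM‐scaled CPM per kilobase of exon. Columns of the authors' EDGE comparison (fold changes and p-values) were not used, nor were 48 per‐sample columns. Whether the counting used strand is not stated there or in the labels.

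Genotypes were compared on exon reads of 20714 genes kept by filterByExpr, with TMM factors of 0.855 to 1.09, with edgeR 4.0.16 (quasi‐likelihood test, legacy fit, R 4.3.3) and Benjamini‐Hochberg adjustment over all genes. The biological coefficient of variation was 0.303, and 22 of 29 members differed beyond counting noise between replicates of either genotype. CPM are TMM‐scaled. DESeq2 1.42.0 and edgeR's exact test were among 13 alternatives. The fit was tested on simulated data. Proteins were aligned with MAFFT 7.526, and chromosome lengths of TAIR10.1 hold every deposited span. Coordinates of genes are those of the table, counted from 1.

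Members and lists were chosen with earlier results of these data known. Values per library are given for members with an unadjusted p under 0.05, the 6 with the highest mean RPKM, and their neighbours and closest relatives, and for up to 5 xyloglucan genes with the smallest p. *BGLC1* and *BGLC3* were left out of that list because the reference names differ. Markers of xylem, phloem and root cap had 0 members past an unadjusted p of 0.05 or an adjusted p of 0.05 in either direction by the quasi‐likelihood test, and 0 by the exact test.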

Additional observations from a re-analysis of the deposited data

How the results depend on the processing

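The 2 replicate numbers per genotype share only a number, so that pairing by them is a hint: deviations of same‐numbered libraries correlated at 0.710 over all genes and 0.650 over the 29 members. With a replicate block, 9 members were higher at an unadjusted p under 0.05 (4 without it), and 5 xyloglucan genes were lower (3 without it). After adjustment over all genes, 5 members were lower and 5 higher (0 and 0 without it). The block raised calls over the whole table too: 2050 of the 20714 genes were lower and 1838 higher after adjustment. The 5 higher after adjustment were *XTH20*, *XTH28*, *XTH33*, *XTH31* (adjusted p = 3.59e-05 by edgeR's quasi‐likelihood test) and *XTH8* (0.0115), and *CSLC4* (0.0118) and *BGAL10* (0.0392) were among the xyloglucan genes called lower. After adjustment, the exact test gave 5 lower and 2 higher, beside 461 and 351 of all 20714 genes. DESeq2 gave 5 and 2, beside 363 and 303. No filter on low counts gave 1 lower, beside 55 lower and 26 higher of 24573 genes. Without 1 library, members higher at an unadjusted p ran from 1 (without Ws replicate 1) to 8 (without *atx1setm* replicate 1), adjusted calls from 1 to 5 lower and 0 to 6 higher, and xyloglucan genes at an unadjusted p from 2 (without Ws replicate 1) to 6 lower (without *atx1setm* replicate 1) and 0 to 1 higher. Each fit without 1 library leaves a single library in that genotype. Calls over the whole table also varied widely between these fits, and were most frequent without *atx1setm* replicate 1. The counts of members called in them therefore cannot be read as specific to the family. The cause of this variation was not tested.

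Members near 0 changed sign. *XTH15* was at −0.0096 with the block and −0.11 with library totals in place of TMM, which shift the median of all genes to −0.10, and *XTH16* at −0.071 with library totals. Without 1 library, log2 fold changes ran from −0.76 to 0.013 for *XTH5*, −0.062 to 0.66 for *XTH7*, −0.29 to 0.28 for *XTH15*, −0.081 to 0.16 for *XTH16*, −0.65 to 0.37 for *XTH18*, −0.21 to 0.67 for *XTH21*, −0.59 to 0.022 for *XTH23* and −0.0030 to 0.32 for *XTH30*. Of the values compared outside the libraries left out, 242 kept their direction and their side of the threshold, 3 lost it, 11 gained it and 3 reversed. In the fits without 1 library, 11 values reversed direction. Depth limits *XTH2* and *XTH29*, the 2 tested members with fewer than 10 exon reads in a library.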
